A study of Homo sapiens with 10 samples.

Results

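PIWI-interacting RNAs (piRNAs) are small RNAs, longer than microRNAs, that PIWI proteins of the Argonaute family carry. In animal germ cells they guide the silencing of transposons, by cutting the transcripts and by marking the DNA or chromatin from which they come. Reads that match catalogued piRNA sequences are also found in somatic cells, where their source and role are less clear, and a count for an identifier says that reads matched its sequence, not that a PIWI protein had bound the RNA. The identifiers described here are those with the longest catalogued sequences in piRNA count tables from BEAS-2B, a human cell line of immortalised bronchial epithelium.

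The 132 identifiers were selected on their catalogued length of at least 31 nucleotides (nt) and on a summed count of at least 100 over the 5 small RNA libraries. They came from 32826 identifiers in the tables, 3804 of them with a count in at least 1 library. By rule piR-hsa-11360 and piR-hsa-11362, each of 32 nt and far more abundant than any of the others, were set aside. Length and summed count alone chose the members, so their abundance is given as a description. An identifier near the minimum could enter through the group of libraries in which it was higher.

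Stable BEAS-2B lines had been made with the pCMV6 vector, either empty (eV) or carrying TAF1C, a subunit of the SL1 factor that brings RNA polymerase I to ribosomal RNA genes. All lines were grown in LHC9 medium with 10% serum and kept under G418 selection, the empty vector lines included. Small RNA was sequenced from 2 empty vector and 3 TAF1C samples, and ribosome-depleted long RNA from 2 and 3. The labels do not say whether samples of a group came from separate cultures or clones, and p-values accordingly speak only of the spread among these libraries.

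The long RNA libraries did not show a higher level of the gene on the vector. TAF1C stood at 63.9 and 77.1 CPM (counts per 1000000 after TMM scaling, described below) in the empty vector libraries. In those labelled TAF1C it stood at 63.5, 58.5 and 66.5 CPM. On this scale the groups overlapped, with a log2 fold change of -0.17 ± 0.13 (SE) and an adjusted p of 0.353 by edgeR's quasi-likelihood test. With library totals in place of TMM, TAF1C was called as lower by the same test (log2 fold change -0.36, adjusted p 0.0347). Every direction below is therefore that of the libraries labelled TAF1C against those labelled empty vector. The small RNA libraries held 2065555 to 3586390 piRNA counts. Counts are given below as CPM after TMM scaling, which sets the library sizes so that most identifiers do not change.

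The 132 members had 1622459 counts together, of which 82 members of 31 nt held 1213956 and 50 members of 32 nt held 408503. The catalogue has 2 longer identifiers, piR-hsa-23 and piR-hsa-83 of 33 nt, and both had 0 counts. Counts were concentrated in few members. The 3 most abundant held 30.9% of them, the first 7 held 55.6% and the first 28, each with at least 10000 counts, held 90.7%. At the other end 61 members had fewer than 1000 counts, and the median was 1150.

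The limit at 100 counts cut through a thin tail. Just inside it stood piR-hsa-28378 with 109 counts, piR-hsa-24651 with 108 and piR-hsa-13640 with 106. Just outside stood piR-hsa-2084 with 96, piR-hsa-2645 with 90 and piR-hsa-21359 with 79. In all, 519 identifiers of at least 31 nt had counts but stayed below the minimum, with 3202 counts together and a median of 2. On the length limit, 93 identifiers of 30 nt had at least 100 counts. After piR-hsa-11361, which alone had 5503268, the most abundant of these was piR-hsa-23786 with 53794, below the 170972 of the most abundant member of 31 nt.

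As a group the members took a larger part of the piRNA counts in every TAF1C library. Their share was 10.1% and 10.0% in the empty vector libraries, against 14.9%, 13.5% and 13.6% in the TAF1C libraries. The groups did not overlap, and the means of 10.1% ± 0.0871 (SD, n = 2) and 14.0% ± 0.815 (SD, n = 3) gave an exact two-sided permutation p of 0.2, the smallest that 2 against 3 libraries can give. A share of the piRNA total moves with the most abundant identifiers. piR-hsa-11360 took 25.9% and 26.4% of the counts with the empty vector, against 18.4%, 19.2% and 19.9% with TAF1C, and piR-hsa-11362 took 7.15% and 7.05% against 5.06%, 5.11% and 4.86%. With these 2 left out of the total, the members' share was 15.1% and 15.0% against 19.5%, 17.8% and 18.1%, a ratio of means of 1.22 in place of 1.39. Much of the members' gain lay in the 3 most abundant of them, so it does not describe the typical member. These 3 held 25.3% and 24.9% of the member counts with the empty vector, against 35.3%, 34.2% and 34.6% with TAF1C. The members' share without these 3 together was not computed.

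The microRNA reads of the same libraries give a scale outside the piRNA table. Per 1000000 microRNA reads the members had 12809 and 13025 counts with the empty vector, against 17004, 16054 and 17469 with TAF1C. Each TAF1C library lay above both empty vector libraries, and the means of 12917 ± 153 (SD, n = 2) and 16842 ± 721 (SD, n = 3) differed 1.30-fold, with an exact permutation p of 0.2. Here too much of the gain lay in the 3 most abundant members, and the level without them was not computed. All piRNA counts together went the other way in their means, 126513 and 130232 per 1000000 microRNA reads against 113748, 119065 and 128473, with groups that overlapped and an exact permutation p of 0.4.

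**Figure D1:**
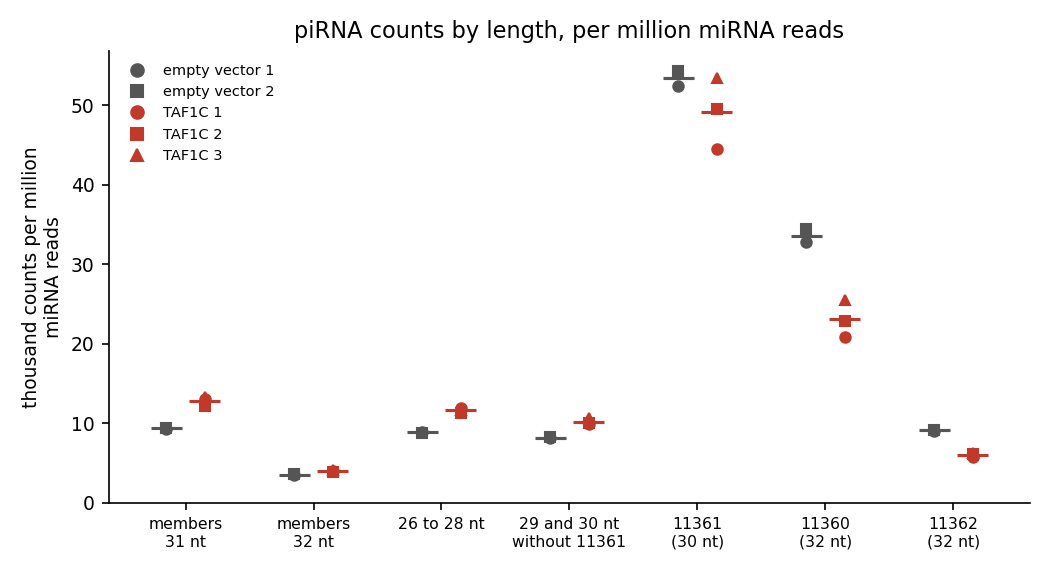
Counts per 1000000 microRNA reads (axis in units of 1000) for members of 31 and 32 nt, for shorter identifiers with at least 100 counts and for 3 dominant identifiers. Points are libraries, short bars are group means, and the axis starts at 0. Members of 31 nt lie at 9289 and 9442 with the empty vector and at 12171 to 13332 with TAF1C, while piR-hsa-11360 and piR-hsa-11362 lie lower with TAF1C.

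Shorter identifiers moved with them on this scale. Identifiers of 26 to 28 nt with at least 100 counts (156) had 8901 and 8787 counts per 1000000 microRNA reads against 11964, 11267 and 11681, a ratio of means of 1.32. Those of 29 and 30 nt without piR-hsa-11361 had 8098 and 8214 against 9952, 9993 and 10657, a ratio of 1.25. The log2 ratio of the members to all identifiers of 26 to 30 nt was -2.44 and -2.45 against -1.97, -2.14 and -2.12, a difference of 0.37 with an exact permutation p of 0.2. Without piR-hsa-11361, a choice made after its counts were seen, the same log2 ratio was -0.41 and -0.38 against -0.37, -0.41 and -0.35. That difference was 0.02 with an exact permutation p of 0.4 and overlapping groups, so no particular gain of the longest identifiers over the shorter ones was measured once this one sequence was left out.

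Members were then compared one by one in a fit over all 574 identifiers that passed a filter on low counts. All 132 members passed it. By edgeR's quasi-likelihood test at an adjusted p under 0.05, 22 members rose, 23 fell and 87 were not called. The median log2 fold change was 0.04, with a range from -1.80 to 1.40. Over all tested identifiers 15.2% rose and 14.1% fell and the median was 0.05, and the members' 16.7% and 17.4% stood near that background. Groups that did not overlap were counted too: 43 members (32.6%) had all TAF1C libraries above both empty vector libraries and 33 (25.0%) had all below, beside 29.3% and 22.8% of all tested identifiers.

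How many were called in each direction depended on the scaling. DESeq2 size factors changed it little, with 20 rises and 23 falls, beside 79 and 87 of all 574 tested identifiers. With library totals 52 members rose and 11 fell, when 36.2% of all tested identifiers rose and 6.97% fell and the median of all was 0.36. With microRNA reads as library sizes 40 rose and 13 fell, when 27.4% of all rose and 7.84% fell and the median of all was 0.27. Of the calls made with TMM, 20 of 22 rises and 11 of 23 falls were called in the same direction under all 5 scalings tried, and 0 of the 45 changed sign.

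**Figure D2:**
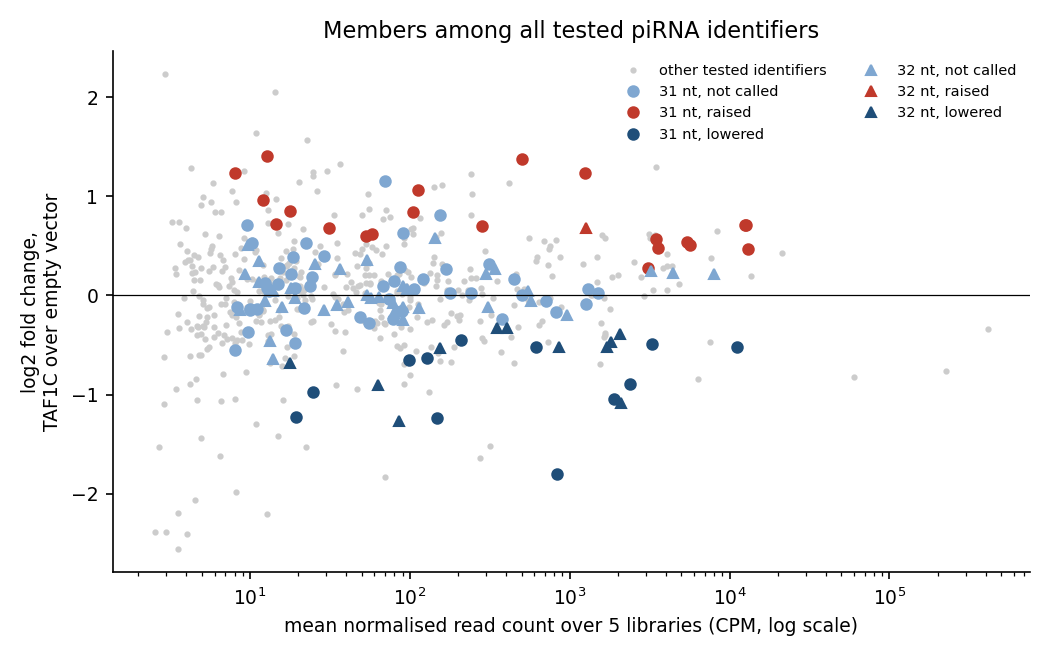
Log2 fold change of TAF1C over empty vector (vertical axis) against the mean CPM over the 5 libraries (horizontal log axis) for each tested identifier, with TMM scaling. Circles are members of 31 nt and triangles members of 32 nt, coloured by call, and grey points are the other tested identifiers. The 22 members that rose and the 23 that fell lie on both sides of 0 over the whole range of abundance.

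Calls were also counted by abundance. Of the 28 members with at least 10000 counts 10 rose and 10 fell (35.7% each), of the 43 with 1000 to 10000 counts 4 rose and 9 fell, and of the 61 with fewer than 1000 counts 8 rose and 4 fell. Over all 574 tested identifiers, whatever their counts, 15.2% rose and 14.1% fell. Other identifiers were not counted by abundance, so whether abundant members differ from them was not tested. The most abundant member, piR-hsa-23317 of 31 nt, stood at 9876 and 11160 CPM with the empty vector, against 16128, 13200 and 14467 CPM with TAF1C. All TAF1C libraries were above both empty vector libraries, and the log2 fold change was 0.47 ± 0.093 (SE), adjusted p 0.000239 by edgeR.

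Next in abundance were piR-hsa-28131 and piR-hsa-1207, both of 31 nt, whose counts could hardly be told apart. piR-hsa-28131 stood at 9482 and 8875 CPM against 15477, 15080 and 14478 CPM. piR-hsa-1207 stood at 9383 and 8801 CPM against 15216, 15037 and 14397 CPM. The ratio of their counts was 1.01 and 1.01 in the empty vector libraries, against 1.02, 1.003 and 1.01 in the TAF1C libraries. Each rose 1.64-fold (log2 fold change 0.71, SE 0.085 and 0.084), with adjusted p of 1.71e-07 and 1.64e-07 by edgeR. No pair of members had identical counts in all 5 libraries, but how reads that match more than 1 identifier were counted is not stated in the sources used here, so these 2 may not be independent measurements. With piR-hsa-23317 they held 25.3% and 24.9% of all member counts with the empty vector, against 35.3%, 34.2% and 34.6% with TAF1C. The ranking used all 5 libraries, 3 of them TAF1C, so it favours members that are high with TAF1C. In both empty vector libraries piR-hsa-29218 stood above all 3. Their larger share with TAF1C is therefore a description and not a test.

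The next 3 in abundance did not move alike. piR-hsa-29218 of 31 nt fell, from 13762 and 13482 CPM to 10714, 8565 and 9212 CPM, with a log2 fold change of -0.52 ± 0.091 (SE) and an adjusted p of 6.15e-05 by edgeR. With library totals its log2 fold change was -0.20 with an adjusted p of 0.161, so the call rests on the scaling. piR-hsa-24672 of 31 nt rose, from 4761 and 4323 CPM to 6858, 6490 and 5977 CPM, with a log2 fold change of 0.50 and an adjusted p of 9.71e-05. piR-hsa-5938, the most abundant member of 32 nt, was not called: it stood at 7298 and 7292 CPM against 8821, 8404 and 8159 CPM, groups that did not overlap, with a log2 fold change of 0.21 ± 0.085 (SE) and an adjusted p of 0.0608. It was called as higher with library totals (log2 fold change 0.53) and with microRNA reads as library sizes (0.44).

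**Figure D3:**
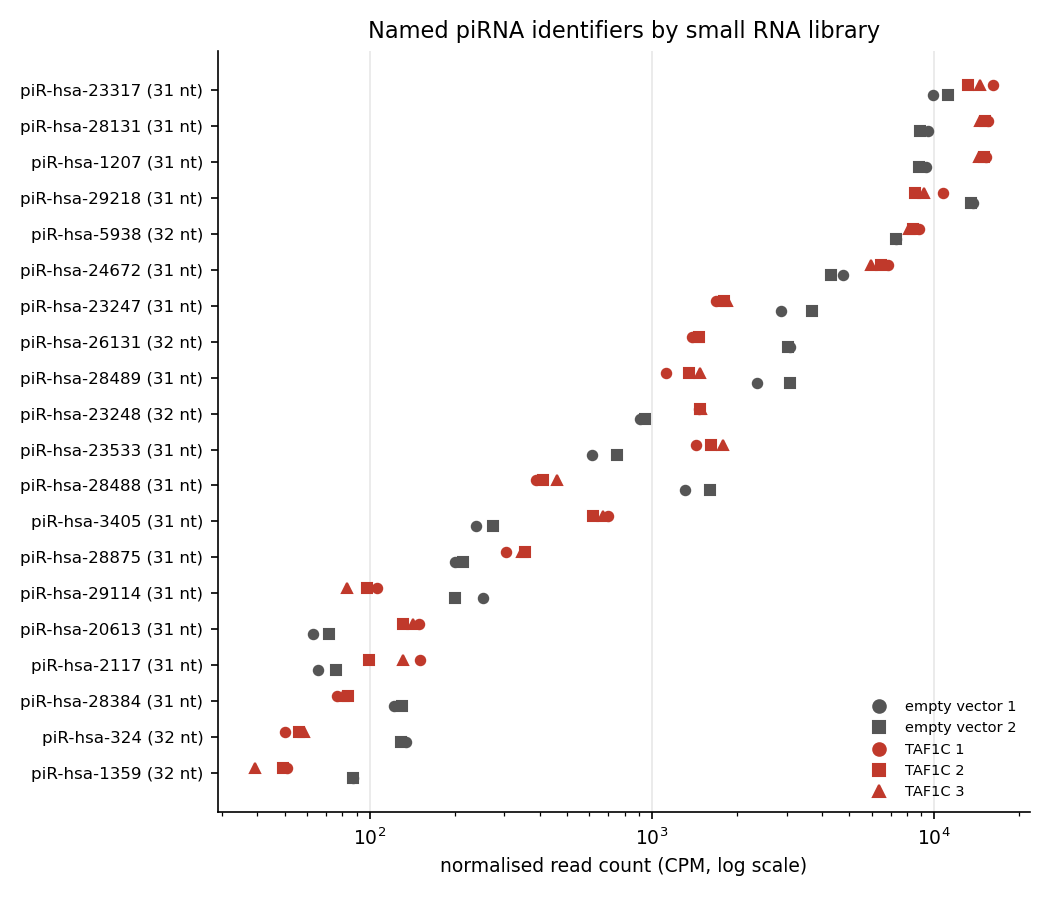
CPM (horizontal log axis) of the most abundant members and of the largest rises and falls, in each small RNA library. Grey marks are the 2 empty vector libraries and red marks the 3 TAF1C libraries. piR-hsa-3405 lies at 238 and 273 CPM against 620 to 699, and piR-hsa-28488 at 1309 and 1607 CPM against 389 to 459. No overlap was a condition for the largest rises and falls.

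The largest rises were taken among members called with no overlap and at least 50 CPM in the higher group, and piR-hsa-28131 and piR-hsa-1207, described above, were 2 of the 8. piR-hsa-3405 of 31 nt stood at 238 and 273 CPM with the empty vector, against 699, 620 and 674 CPM with TAF1C. It rose 2.60-fold, with a log2 fold change of 1.38 ± 0.12 (SE) and an adjusted p of 4.95e-10 by edgeR. piR-hsa-23533 of 31 nt stood at 615 and 750 CPM against 1430, 1621 and 1780 CPM, and rose 2.36-fold (adjusted p 7.43e-09). Groups lie apart in every member of this list because no overlap was a condition for it.

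Smaller rises followed. piR-hsa-20613 of 31 nt rose 2.10-fold, from 62.8 and 71.8 CPM to 150, 132 and 143 CPM. piR-hsa-2117 of 31 nt rose 1.79-fold, from 65.6 and 76.3 CPM to 150, 99.5 and 132 CPM, with TAF1C 2 lowest of the TAF1C libraries. piR-hsa-28875 of 31 nt rose 1.62-fold, from 200 and 213 CPM to 303, 357 and 347 CPM. piR-hsa-23248, at 909 and 944 CPM against 1470, 1482 and 1491 CPM, rose 1.60-fold (log2 fold change 0.68, adjusted p 4.9e-06 by edgeR). Of the 50 members of 32 nt it was the single one that rose with TMM scaling. piR-hsa-26754 of 31 nt had the highest fold change of all members, 1.40 on the log2 scale, but at 6.36 and 6.47 CPM against 19.7, 13.5 and 17.8 CPM it lay under the minimum level for this list.

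piR-hsa-28488 of 31 nt stood at 1309 and 1607 CPM with the empty vector, against 389, 411 and 459 CPM with TAF1C. This was the largest fall among the members, 3.47-fold, with a log2 fold change of -1.80 ± 0.11 (SE) and an adjusted p of 1.28e-12 by edgeR. The identifier with the next number, piR-hsa-28489 of 31 nt, fell 2.06-fold, from 2364 and 3080 CPM to 1126, 1357 and 1480 CPM. The pair did not keep a fixed proportion: counts of piR-hsa-28489 were 1.81 and 1.92 times those of piR-hsa-28488 with the empty vector, against 2.90, 3.30 and 3.22 times with TAF1C.

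Of the 8 largest falls 3 were in members of 32 nt, piR-hsa-26131 being the most abundant of these. It stood at 3088 and 3030 CPM against 1385, 1471 and 1454 CPM and fell 2.13-fold (log2 fold change -1.09 ± 0.092 SE, adjusted p 3.65e-10 by edgeR). piR-hsa-324 of 32 nt fell 2.40-fold, from 135 and 129 CPM to 50.2, 56.3 and 58.4 CPM. piR-hsa-1359 of 32 nt fell 1.88-fold, from 87.1 and 87.6 CPM to 50.9, 49.2 and 39.3 CPM. No overlap between the groups was a condition for the list of falls too. In piR-hsa-1359 TAF1C 3 was lowest of the TAF1C libraries.

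The others of the 8 largest falls, taken by the same limits as the rises, were in members of 31 nt. piR-hsa-29114 fell 2.37-fold, from 252 and 201 CPM to 106, 98.0 and 83.0 CPM. piR-hsa-23247 fell 1.85-fold, from 2873 and 3692 CPM to 1683, 1796 and 1838 CPM. piR-hsa-28384 fell 1.56-fold, from 122 and 130 CPM to 76.9, 84.1 and 80.7 CPM. In piR-hsa-23247 the empty vector libraries were further apart than the TAF1C libraries.

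The members just inside the count minimum were too shallow for firm values. piR-hsa-28378 had 28 and 28 counts against 35, 10 and 8, so TAF1C 1 stood apart. It was not called with all libraries and was called as lower without TAF1C 1 (log2 fold change -1.39, adjusted p 0.00809 by edgeR). piR-hsa-24651 had 25 and 23 counts against 20, 20 and 20, and its direction turned with the scaling. piR-hsa-13640 had 12 and 13 counts against 34, 31 and 16 and rose, but without empty vector 2 or without TAF1C 2 its adjusted p was 0.0753 or 0.0669.

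The 2 lengths within the members differed in their calls, a split that was made after the values had been seen. Of the 82 members of 31 nt 21 rose (25.6%) and 12 fell (14.6%), with a median log2 fold change of 0.10. Of the 50 members of 32 nt 1 rose (2.0%) and 11 fell (22.0%), with a median of -0.06. Tested identifiers of 29 nt (15 rose and 14 fell of 106) and of 30 nt (17 rose and 13 fell of 116) showed no such one-sided split. With library totals 39 members of 31 nt rose and 8 fell, beside 13 and 3 of 32 nt, and the other members were not called. The median of 32 nt lay below that of 31 nt on both scales, at 0.25 against 0.41 with library totals.

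A ratio of the 2 lengths needs no scaling between libraries. The log2 ratio of the summed counts of 32 nt to those of 31 nt was -1.40 and -1.40 with the empty vector, against -1.73, -1.65 and -1.69 with TAF1C. Each TAF1C library lay below both empty vector libraries, with a difference of -0.29 and an exact permutation p of 0.2. Per 1000000 microRNA reads members of 31 nt had 9289 and 9442 counts against 13063, 12171 and 13332, a ratio of means of 1.37, and members of 32 nt had 3520 and 3583 against 3941, 3882 and 4137, a ratio of 1.12. The identifiers set aside, both of 32 nt, were 0.687 (piR-hsa-11360) and 0.661 (piR-hsa-11362) of their empty vector mean on that scale. A few abundant members carry much of these sums, so they describe the reads and not the typical member. The 3 most abundant members are all of 31 nt, and the ratio without these 3 together was not computed. How far the difference rests on them was not tested.

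**Figure D4:**
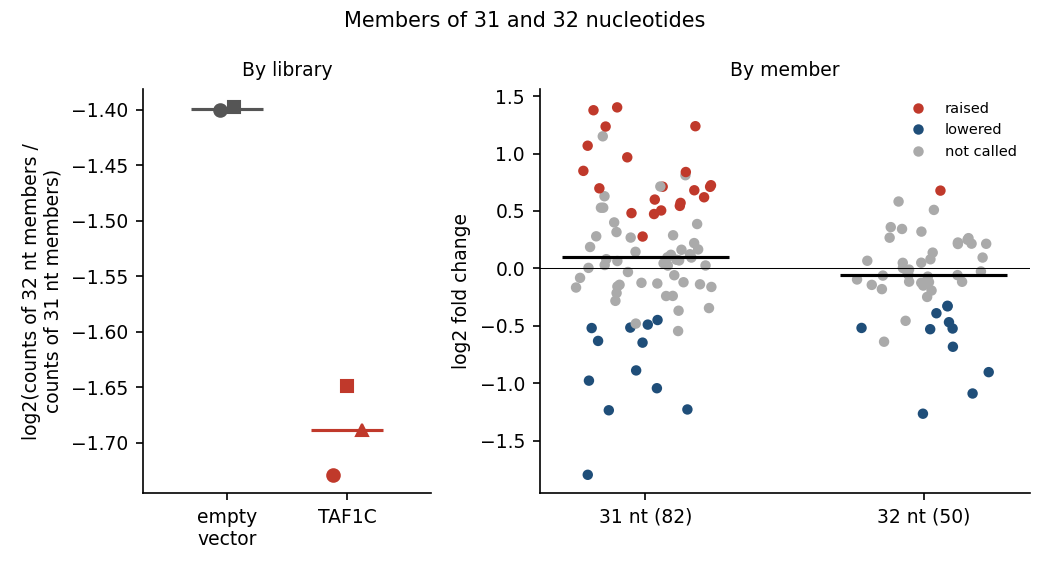
Left, log2 ratio of the summed counts of members of 32 nt to those of 31 nt in each library, with bars at the group means, -1.40 for the empty vector and -1.69 for TAF1C. Right, log2 fold change of each member by length, coloured by call, with bars at the medians of 0.10 and -0.06.

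Many members carry numbers that follow on each other in the catalogue, and such identifiers often behaved alike. There were 20 pairs of members with consecutive numbers, involving 36 members. The median absolute difference of log2 fold change within these pairs was 0.23, and it was 0.49 over all 8646 pairs of members. Among members with at least 1000 counts it was 0.15 over 17 such pairs and 0.53 over all 2485 pairs. In 1 pair both rose, in 4 both fell, in 6 only 1 was called, in 8 neither was, and in 1 the calls were opposite. Pairs that joined a member of 31 nt and one of 32 nt numbered 16. The longer had the lower fold change in 11 of them and the higher in 5, with a median difference of -0.11.

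The pair with opposite calls was piR-hsa-23247 of 31 nt, which fell, and piR-hsa-23248 of 32 nt, which rose. The counts of the second were 0.316 and 0.256 of those of the first with the empty vector, against 0.874, 0.825 and 0.811 with TAF1C. A ratio of 2 counts in the same library does not depend on the scaling, and no TAF1C library came near an empty vector library here. This pair goes against the direction of most pairs of 31 and 32 nt.

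Members also had neighbours by number among shorter identifiers. There were 39 pairs of a member and an identifier of at most 30 nt with at least 100 counts, involving 35 members. In 5 pairs both rose, in 1 both fell, in 7 only 1 was called and in 22 neither was. The calls were opposite in 4 pairs, each a member that fell beside an identifier of 30 nt that rose: piR-hsa-28488 with piR-hsa-28487, piR-hsa-324 with piR-hsa-325, piR-hsa-27615 with piR-hsa-27616, and piR-hsa-6147 with piR-hsa-6148. The falls of piR-hsa-27615 and piR-hsa-6147 were not called with library totals or with microRNA reads as library sizes. All pairs with opposite calls were named after their values had been seen.

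The first of them shows how far such neighbours could part. piR-hsa-28487 stood at 239 and 246 CPM with the empty vector, against 296, 369 and 327 CPM with TAF1C, and rose with a log2 fold change of 0.45 and an adjusted p of 0.00514 by edgeR, while piR-hsa-28488 fell by 1.80 on the log2 scale. piR-hsa-325 stood at 14.7 and 16.8 CPM against 25.6, 26.2 and 23.6 CPM and had a log2 fold change of 0.67, beside -1.27 for piR-hsa-324. Neighbouring numbers alone do not say that 2 sequences overlap, and the tables give names, lengths and counts with no coordinates.

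**Figure D5:**
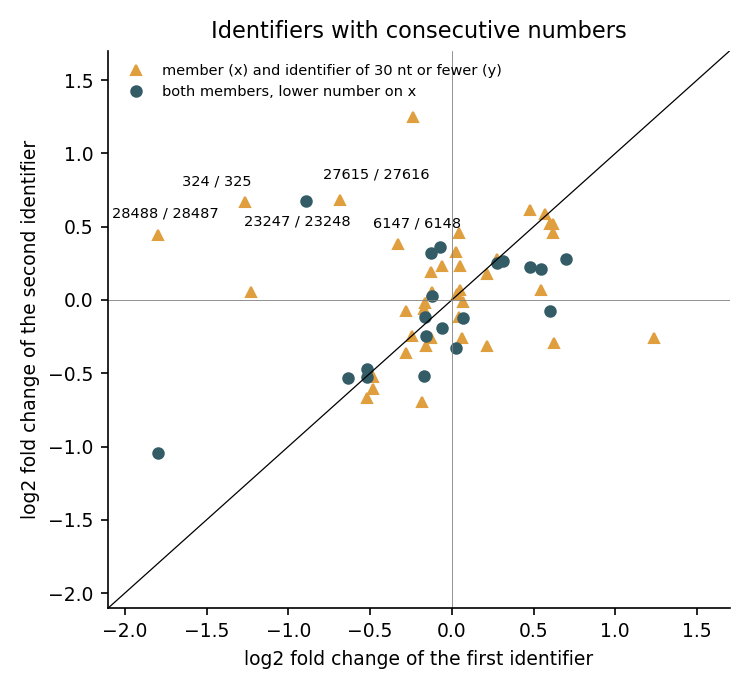
Log2 fold changes of identifiers with consecutive numbers, plotted against each other with the line of equal change. Circles are pairs of members (20) and triangles pairs of a member with an identifier of at most 30 nt (39), and labels mark the 5 pairs with opposite calls. Labelled pairs lie in the upper left, with the first identifier lower and the second higher in TAF1C.

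Members could also match each other without neighbouring numbers. The 3 whose centred log2 CPM over the 5 libraries was closest to that of piR-hsa-23317 were piR-hsa-32165 and piR-hsa-26594 (root mean square difference 0.0757 for each) and piR-hsa-26592 (0.113). They were far less abundant, with 382, 713 and 699 counts beside 170972. After piR-hsa-28131 and piR-hsa-1207, the closest pair among members with at least 1000 counts was piR-hsa-28877 with piR-hsa-28876, which do have consecutive numbers. Their counts stood in ratios of 1.01 to 1.05. The next closest pair was piR-hsa-24672 with piR-hsa-5937, at 1.03 to 1.07, whose numbers lie far apart. Both members of the last pair rose, piR-hsa-5937 with a log2 fold change of 0.54.

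Libraries of a group differed by more than counting error but less than the larger changes above. Over the 71 members with at least 1000 counts the SD of the log2 difference between the empty vector libraries was 0.196, and between pairs of TAF1C libraries it was 0.169 to 0.237, largest between TAF1C 1 and TAF1C 2. TAF1C 1 was at least 1.5 times both other TAF1C libraries in 4 members. One of them, piR-hsa-1177, stood at 109 and 104 CPM against 258, 138 and 163 CPM and was not called. Without TAF1C 1 the members' calls numbered 28 rises and 26 falls in place of 22 and 23, and those over all tested identifiers 103 and 95 of 571 in place of 87 and 81 of 574.

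The genes of the piRNA pathway were measured in the long RNA libraries of the same lines. Of 40 listed genes 22 passed the filter of 1 CPM in at least 2 libraries, of which 4 rose, 3 fell and 15 were not called, with a median log2 fold change of -0.04. Over all 18402 genes 15.9% rose and 22.6% fell and the median was -0.10. Transcripts of the genes for PIWI proteins, which carry piRNAs, were low. PIWIL1 had 2.03 and 0.0352 CPM with the empty vector, against 0.622, 0.321 and 0.491 CPM with TAF1C, and PIWIL3 had 1.18 and 0 CPM against 0.311, 0.350 and 0.429 CPM, both too low to be tested. PIWIL2 had 2.14 and 1.45 CPM against 0.594, 0.817 and 0.981 CPM (log2 fold change -1.17, adjusted p 0.0662 by edgeR) and PIWIL4 had 2.76 and 0.846 CPM against 1.39, 1.98 and 1.81 CPM (adjusted p 0.937). In PIWIL1, PIWIL3 and PIWIL4 the 2 empty vector libraries lay on either side of the TAF1C libraries.

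SPOCD1, known for its part in piRNA-directed DNA methylation in germ cells, had the largest rise of the pathway genes that were called. It stood at 3.65 and 2.33 CPM against 36.5, 38.3 and 37.2 CPM, a log2 fold change of 3.64 ± 0.24 (SE) with an adjusted p of 0.000500 by edgeR. PRMT5, the arginine methyltransferase whose marks on PIWI proteins are read by Tudor proteins, stood at 27.5 and 45.0 CPM against 65.9, 63.8 and 70.2 CPM (adjusted p 0.0275). Its partner WDR77 stood at 13.2 and 21.3 CPM against 30.9, 33.0 and 28.9 CPM (adjusted p 0.0357), and PARN, a ribonuclease that trims 3' ends, at 44.3 and 58.0 CPM against 70.2, 75.9 and 72.2 CPM (adjusted p 0.0410). All 4 had no overlap between groups, and the calls of PRMT5, WDR77 and PARN were lost without any 1 of the TAF1C libraries. With no filter the calls of WDR77 (adjusted p 0.0598) and PARN (0.166) were lost as well. They were also lost with the replicate block, at an adjusted p of 0.0543 for WDR77 and 0.154 for PARN by edgeR.

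Of those that fell SETDB1, a histone H3 lysine methyltransferase, had the steadiest values, at 72.5 and 69.8 CPM against 46.5, 45.4 and 44.4 CPM (log2 fold change -0.65, adjusted p 0.00599 by edgeR). TDRD7, a Tudor domain protein, stood at 15.5 and 7.30 CPM against 4.13, 3.59 and 3.10 CPM (adjusted p 0.0188). TEX15, needed for transposon silencing in male germ cells, stood at 39.7 and 107 CPM against 25.0, 29.3 and 26.2 CPM (adjusted p 0.0332). The calls of TDRD7 and TEX15 were lost without any 1 of the TAF1C libraries, and that of TDRD7 also with the replicate block (adjusted p 0.0725 by edgeR). That of SETDB1 was lost without TAF1C 3 (adjusted p 0.0539), with no filter (0.122) and with the replicate block (0.0906). The most abundant genes of the list, the chaperone HSP90AA1 (1207 and 1781 against 2393, 2719 and 2410 CPM, adjusted p 0.0562) and the helicase MOV10 (73.8 and 62.1 against 91.1, 83.2 and 92.8 CPM, adjusted p 0.0556), were not called.

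Markers of some cell types differed between the long RNA groups. The photoreceptor and neuronal genes were listed when they were already known to be high in the empty vector libraries. Their falls are therefore a description and not a test. Over all 18402 genes 15.9% rose and 22.6% fell. Summed over 12 photoreceptor markers the level was 2152 and 1900 CPM with the empty vector and 6.21 to 8.26 CPM with TAF1C, and all 12 fell. Over 10 neuronal markers it was 324 and 160 CPM against 6.29 to 7.01 CPM, and all 8 tested fell. Epithelial markers went the other way, 394 and 383 CPM against 1386 to 1499 CPM, with 5 rises and 2 falls among 9 tested. Germ cell markers summed to 16.6 and 6.56 CPM against 7.73 to 9.60 CPM over 11 genes, of which 1 passed the filter and DAZ1 was at 0 in all libraries. Of 7 fibroblast markers tested 0 were called, and of 5 haematopoietic markers tested 1 fell and 0 rose. The part of these differences in the levels of the piRNA identifiers was not tested, and in such bulk samples fewer cells of a type and less RNA per cell cannot be told apart. Whether the groups differed in more than the vector, such as in the identity of the cells, was not tested either.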

How the data were processed

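Small RNA and ribosome-depleted long RNA were sequenced from BEAS-2B lines, 2 empty vector and 3 TAF1C libraries of each kind, grouped by their labels. RNA came from the mirVana kit and libraries from NEBNext kits, per the labels' protocols. The submitters' processing notes name the genome build hg19 and DESeq2, Cufflinks 2.2.1, HISAT2, Bowtie2 2.2.4 and Trimmomatic 0.36, with no role for each. Settings, the piRNA catalogue and the treatment of reads that match several identifiers are not given in the sources used here. The deposited piRNA and long RNA tables hold raw counts by the authors, all whole numbers, with totals that differ between libraries. In the deposited miRNA tables the values are a signal that the authors had scaled by 1 factor per library, since values are multiples of 1 step. Dividing the totals by the steps gave 16077733 to 27538545 microRNA reads, used only as a library size.

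piRNA counts were fitted over the whole table with edgeR 4.0.16 in R 4.3.3 (filterByExpr, TMM, robust quasi-likelihood fit), and long RNA counts (22809601 to 37533366 a library) likewise without the robust option for genes that reached 1 CPM in 2 or more libraries. Tests were two-sided, with Benjamini-Hochberg adjustment over all features tested, at 0.05. Values of whole libraries were compared by exact permutation. Folds are ratios of mean CPM and log2 fold changes come from the fit. The script was tested on simulated data. Alternatives were other scalings, filters, DESeq2 1.42.0, the replicate block and leaving out each library. The members and gene lists were chosen with earlier results of these data known.

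Named identifiers were the 6 most abundant members, the 8 largest rises and 8 largest falls among members called without overlap and with a mean of at least 50 CPM in the higher group, and the 3 on each side of the count minimum. For likeness the 3 members closest to the most abundant one were taken. From the long RNA, TAF1C, the PIWI genes, called genes of the pathway list and its most abundant genes were named. Summaries used Python 3.11.15 and pandas 2.3.3, and figures matplotlib 3.10.9.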

Additional observations from a re-analysis of the deposited data

How the results depend on the processing

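The split of the members into 22 rises and 23 falls changed little with DESeq2 size factors, which gave 20 and 23. The median of all tested identifiers was then 0.01. It changed more with scalings to a total. Rises numbered 52 with library totals, 40 with microRNA reads and 34 with library totals without piR-hsa-11360 and piR-hsa-11362, which made rises 82.5%, 75.5% and 64.2% of the calls in place of 48.9%, and falls numbered 11 with library totals and 13 with microRNA reads. The last scaling put the median of all tested identifiers at 0.18. Leaving out 1 library gave 18 to 28 rises and 20 to 26 falls. With the replicate block 16 members rose and 16 fell, beside 69 and 55 of all 574 tested identifiers, and piR-hsa-23317 (adjusted p 0.0604) and piR-hsa-2117 (0.0725) lost their calls. The replicate numbers are only shared between the groups, with fewer than 3 pairs to compare. The log2 difference between libraries 1 and 2 of the empty vector was set against that of TAF1C, with TAF1C 3 unused. These differences correlated at 0.205 over 71 members and at 0.358 over all 225 tested identifiers with at least 1000 counts. The log2 fold change of piR-hsa-24651, -0.12, turned to 0.19 with library totals, 0.10 with microRNA reads and 0.009 with totals without the 2 identifiers, and ranged from -0.337 to 0.075 with 1 library left out (0.075 without empty vector 1).

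Pathway genes that rose, 4 by edgeR, numbered 7 with the DESeq2 Wald test, 2 with no filter, 2 with the block and 1 to 8 with 1 library left out. Those that fell, 3, numbered 5 with library totals, 5 with DESeq2, 1 with the block and 0 to 7 with 1 library left out. PIWIL4, at -0.06, turned to 0.027 with DESeq2 size factors and with the DESeq2 test, 0.109 with no filter, 0.089 with the block and 0.073 without TAF1C 1, and ranged from -0.712 without empty vector 2 to 0.959 without empty vector 1. TAF1C passed the test as lower with library totals (-0.36, adjusted p 0.0347) and without empty vector 1 (-0.361, adjusted p 0.00133), and its log2 fold change was -0.361 to -0.057 with 1 library left out. The cause of these shifts was not tested. The difference in the members' share was 3.27 to 4.21 percentage points over the alternatives, and 0.549 for the members of 32 nt alone. In counts per 1000000 microRNA reads it was 3190 to 4319, and 435 for 32 nt alone. In the log2 ratio to 26 to 30 nt it was 0.32 to 0.40, with 0.16 for 32 nt alone and 0.02 without piR-hsa-11361. In the log2 ratio of 32 to 31 nt it was -0.31 to -0.25. Each difference kept its sign under every alternative run. Of the most abundant members only piR-hsa-23317 was left out in these alternatives, apart from the limit to 32 nt. With 2 against 3 libraries none of these tests can go below 0.2, and at about 100 counts a member's fold change is uncertain.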
